A study of Mus musculus with 8 samples.

Results

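Glycolysis and the response to low oxygen were followed through 37 genes, taken by symbol from a list of names and read from the series' gene table. The table held 46635 loci, and all 37 symbols were found in it. Each gene reached 1 FPKM (fragments or reads per kilobase of gene, scaled for library size) in at least 4 of the 8 libraries, so all 37 were among the 14044 genes tested. By role they are 2 glucose transporters, 15 enzymes of the path from glucose to pyruvate, 2 lactate dehydrogenase chains, 3 regulators of glycolysis, 2 monocarboxylate transporters, 3 subunits of the hypoxia-inducible factors (HIF), 2 HIF prolyl hydroxylases and 8 HIF targets of other function. The RNA came from mouse small intestine whose epithelium had been stripped with EDTA, and the remainder, which holds muscle, nerves, vessels and connective tissue, is the mesenchyme of the sample labels. Both groups were wild type and no agent other than the EDTA is named: 4 libraries were fetal (E17.5 in the protocol, E17 in the age label) and 4 came from pups at postnatal day 14 (P14). Whether a library is a single mouse or several pooled is not stated in the labels, and the p-values therefore describe the spread between these libraries, which may be technical.

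Glycolysis splits glucose into pyruvate in the cytosol. Hexokinase, phosphofructokinase and pyruvate kinase catalyse its practically irreversible steps, and most steps have several isoenzymes encoded by separate genes. Pyruvate either enters mitochondria through pyruvate dehydrogenase or is reduced to lactate, which crosses the cell membrane through monocarboxylate transporters. HIF is a dimer of an oxygen-regulated alpha subunit and ARNT. Prolyl hydroxylases mark the alpha subunit for destruction when oxygen is present. Many glycolytic genes are known HIF targets, and so are genes that act on mitophagy, pH, calcium or growth.

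Assigned reads, recovered from the FPKM values, numbered 16.7e6 to 19.5e6 per library. Markers of smooth muscle, fibroblasts and enteric neurons were above 0 in every library, and so were all 14 pan-epithelial markers. The epithelial markers summed to 34.1 to 55.9 FPKM in the fetal libraries and to 5476, 132, 751 and 262 FPKM in P14 replicates 1 to 4. P14 replicate 1 thus stood apart, and results that rest on it are given with and without it. The library size behind its FPKM was 0.780 times its assigned reads, against 1.022 to 1.06 times in the other 7 libraries. Among markers of other cells, 5 of 5 tested erythroid, 9 of 9 cell division, 6 of 7 macrophage and 4 of 6 endothelial genes fell with age, as did 2 of 8 fibroblast and matrix genes, while 3 of 4 B and plasma cell genes and 1 of 3 skeletal muscle genes rose. Of 9 smooth muscle and 8 enteric neuron genes tested, 9 and 4 rose without P14 replicate 1 and did not pass with it. Hk1, Pfkm, Eno3, Ldhb, Higd1a, Car9 and Pfkfb4 also rose without that library and did not pass with it. P14 replicate 1 was the highest P14 library for Pfkfb4 and the lowest P14 library for the others. The part of muscle and nerve cells in these genes was not tested. In bulk tissue, fewer cells of a type cannot be told apart from less RNA per cell. Across all tested genes 9.72% were called higher at P14 and 15% lower (limma, adjusted p under 0.05), and without P14 replicate 1 these shares were 22.6% and 26.9%. Rescaled to TPM, 899 genes were called higher and 2678 lower, against 1365 and 2108 on the deposited scale, with the median over all genes shifted by -0.18 on the log2 scale. FPKM summed to 504693 in P14 replicate 1 and to between 333278 and 366312 in the other libraries, so TPM lowers every gene most in P14 replicate 1.

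The 37 genes were more often lower than higher at P14. With all libraries 3 rose (Pfkp, Aldoc and Slc16a1), 14 fell and 20 did not pass the test. The 14 decreases were Slc2a1, Hk2, Pfkl, Pgk1, Pgam1, Eno1, Pkm, Pdk1, Slc16a3, Hif1a, Egln3, Ddit4, Stc1 and Stc2. Without P14 replicate 1, 10 rose and 20 fell, and all 17 genes called with every library were called in the same direction. The 20 include Gapdh, whose values are uncertain as described with the other enzymes. The median log2 fold change of the 37 was -0.40 with all libraries and -0.44 without P14 replicate 1, beside 0.00219 and -0.0250 over all tested genes. In 16 of the 37 every P14 value lay below every fetal value, and in 6 every P14 value lay above, where 20.4% and 15.6% of all tested genes did so. Without P14 replicate 1 the counts were 20 and 10, against 29.7% and 24.8% of all tested genes. Each fold change compares P14 with E17.5 after 1 was added to the FPKM and log2 taken, which makes it smaller than the ratio of FPKM for genes of low level. Adjusted p-values are limma's, over all 14044 genes, and SDs, given after ±, cover the 4 libraries of each age.

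**Figure D1:**
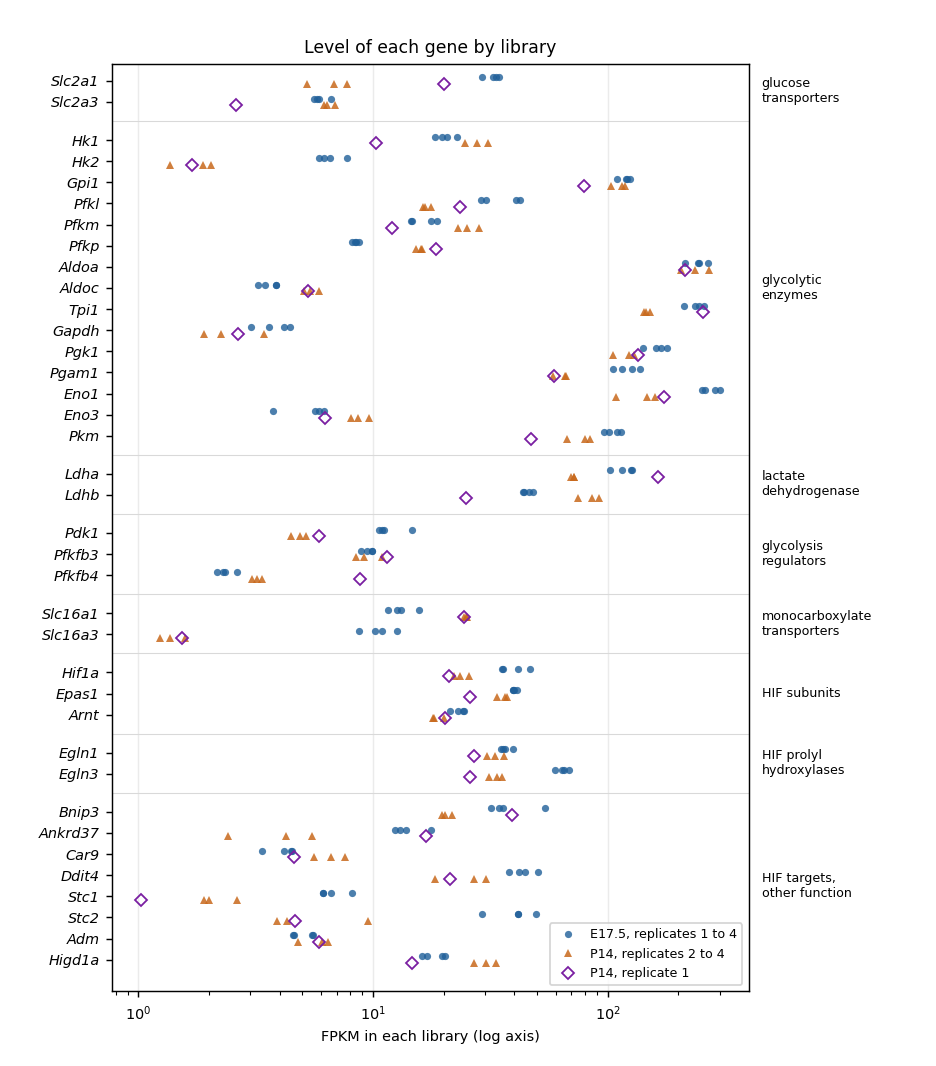
Each row is a gene and each symbol the FPKM of 1 library on a log axis: circles are the 4 E17.5 libraries, triangles P14 replicates 2 to 4 and the open diamond P14 replicate 1. For Slc16a3, Hk2 and Stc2 all P14 symbols lie left of all E17.5 symbols, and for Ldha, Ldhb, Hk1 and Ankrd37 the diamond lies away from the other P14 symbols.

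**Figure D2:**
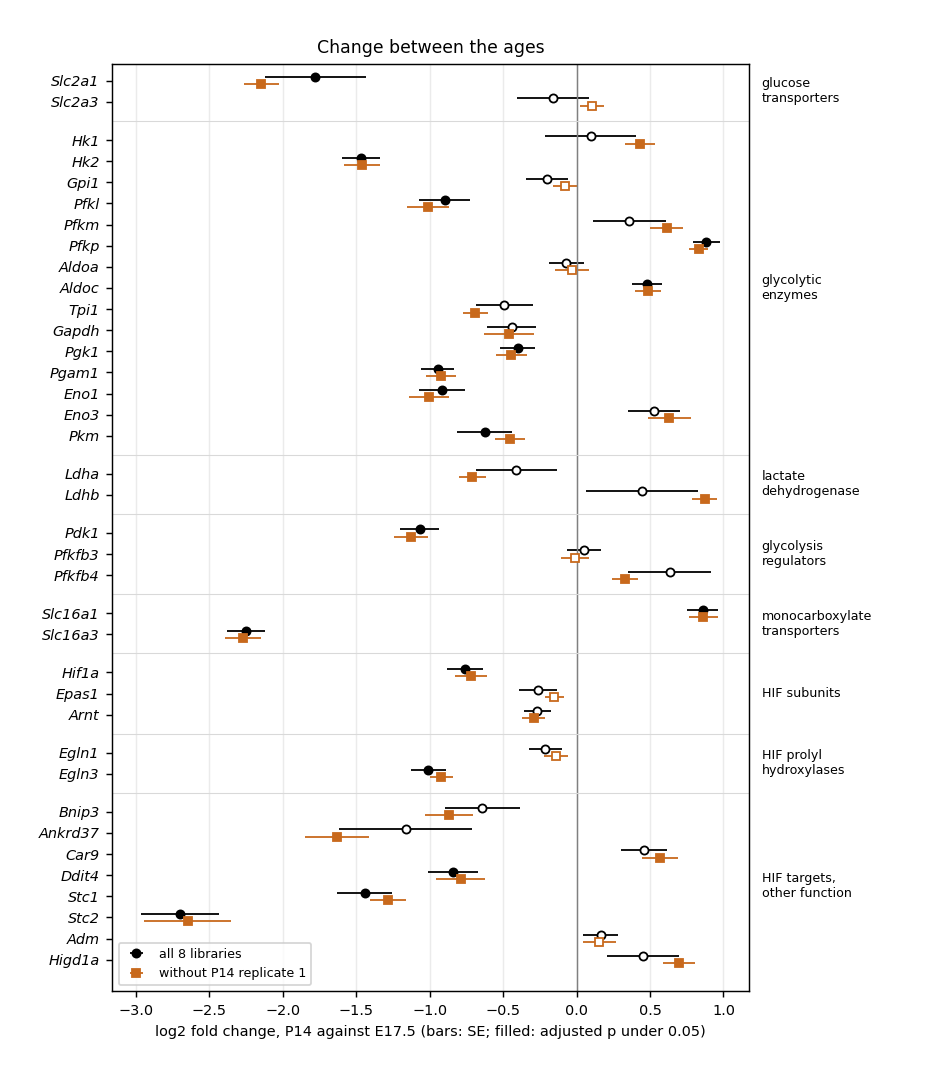
Log2 fold change of each gene, P14 against E17.5, with SE bars: circles for all 8 libraries and squares without P14 replicate 1, filled where the adjusted p is under 0.05. The filled circles comprise 3 genes to the right of 0 and 14 to the left, and the filled squares 10 and 20.

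Of the 2 glucose transporters, 1 fell. Slc2a1 (gene 20525, chromosome 4, 118965942 to 118994527, plus strand, GRCm39, as are all gene positions here) encodes GLUT1, a widespread glucose carrier and a known HIF target. The 4 fetal libraries, in the order of their replicate numbers, read 33.5, 32.5, 29.00 and 34.5 FPKM and the P14 libraries 19.99, 5.26, 6.80 and 7.72. All P14 libraries lay below all fetal ones, and replicate 1, which held the most epithelial transcript, was the highest of them. The difference was a log2 fold change of -1.78, SE 0.342, adjusted p = 0.00939, and a log2 fold change of -2.15, SE 0.119, adjusted p = 1.03e-05 without P14 replicate 1. Slc2a3, the gene of GLUT3, a carrier known from neurons, averaged 5.97 ± 0.449 FPKM in the fetus and 5.52 ± 1.96 in pups (log2 fold change of -0.16, SE 0.245, adjusted p = 0.6601). Its lowest value, 2.61 FPKM, was that of P14 replicate 1, and without that library the difference was a log2 fold change of 0.10, SE 0.0825, adjusted p = 0.326.

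Of the hexokinases, which trap glucose in the cell, Hk2 fell and Hk1 did not pass with all libraries. Hk2 (gene 15277, chromosome 6, 82702004 to 82751435, minus strand), the inducible isoenzyme, read 7.71, 6.18, 6.56 and 5.90 FPKM in the fetal libraries and 1.70, 1.36, 2.04 and 1.88 in those of pups. The ages were far apart and P14 replicate 1 lay among the other P14 libraries (log2 fold change of -1.47, SE 0.127, adjusted p = 0.000616), with a mean 3.78-fold higher in the fetus. Hk1 (gene 15275, chromosome 10, 62104634 to 62215699, minus strand), the isoenzyme of most adult tissues, read 22.7, 19.7, 20.7 and 18.3 FPKM in fetal libraries against 10.3, 30.9, 24.6 and 27.8 in pups. P14 replicate 1 was the lowest of all 8 libraries and the other P14 libraries the 3 highest. With all libraries the Hk1 difference was a log2 fold change of 0.10, SE 0.308, adjusted p = 0.842, it turned to -0.09 after rescaling to TPM, and it was a log2 fold change of 0.43, SE 0.101, adjusted p = 0.00825 without P14 replicate 1. Smooth muscle markers had the same order: they summed to 2931 FPKM in P14 replicate 1, to between 8022 and 11261 in the other P14 libraries and to between 5016 and 5498 in the fetal ones, and their part in the Hk1 values was not tested.

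The 3 phosphofructokinase genes, whose products form the tetramer that commits sugar to glycolysis, went in different directions. Pfkl, the liver-type subunit, fell from 42.4, 40.7, 28.9 and 30.4 FPKM in the fetal libraries to 23.5, 17.7, 16.4 and 16.7 in pups (log2 fold change of -0.90, SE 0.173, adjusted p = 0.00938). Pfkp, the platelet-type subunit, rose from 8.40, 8.72, 8.16 and 8.49 FPKM to 18.5, 15.95, 15.2 and 16.2 (log2 fold change of 0.88, SE 0.0919, adjusted p = 0.000972). Neither gene's ages overlapped, and P14 replicate 1 was the highest P14 library in both. Pfkm, the muscle-type subunit, read 18.7, 17.7, 14.5 and 14.7 FPKM in the fetus and 12.1, 28.4, 23.05 and 25.2 in pups, with P14 replicate 1 lowest of all as for Hk1. It did not pass with all libraries (log2 fold change of 0.36, SE 0.249, adjusted p = 0.318) and rose without P14 replicate 1 (log2 fold change of 0.61, SE 0.113, adjusted p = 0.00262).

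Pfkfb3 and Pfkfb4 encode bifunctional enzymes that set fructose 2,6-bisphosphate, the activator of phosphofructokinase. Pfkfb3 averaged 9.54 ± 0.4603 FPKM in the fetus and 9.97 ± 1.41 in pups (log2 fold change of 0.05, SE 0.115, adjusted p = 0.7705). Its direction turned to -0.13 after rescaling to TPM and to -0.0114 without P14 replicate 1. Pfkfb4 read 2.62, 2.29, 2.16 and 2.33 FPKM in the fetal libraries and 8.84, 3.04, 3.21 and 3.35 in pups, with no overlap (log2 fold change of 0.63, SE 0.282, adjusted p = 0.135). Its highest library was P14 replicate 1, and without it Pfkfb4 passed, with a smaller difference (log2 fold change of 0.33, SE 0.08900, adjusted p = 0.0156).

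Of Gpi1, Aldoa, Aldoc and Tpi1, which serve the isomerase and aldolase steps, Aldoc rose and the other 3 did not pass with all libraries. Aldoa, which encodes the main aldolase, averaged 242 ± 22.1 FPKM in the fetus and 231 ± 29.1 in pups (log2 fold change of -0.07, SE 0.121, adjusted p = 0.703), and Gpi1, glucose-6-phosphate isomerase, 119 ± 6.55 and 104 ± 17.7 (log2 fold change of -0.20, SE 0.141, adjusted p = 0.3205). Aldoc, the brain-type aldolase, rose from 3.86, 3.85, 3.25 and 3.46 FPKM to 5.29, 5.40, 5.07 and 5.89 (log2 fold change of 0.48, SE 0.1004, adjusted p = 0.0127), a call that was lost after rescaling to TPM (0.37, adjusted p = 0.128). Tpi1, triosephosphate isomerase, read 257, 236, 211 and 245 FPKM in the fetal libraries and 255, 152, 145 and 143 in pups. P14 replicate 1 lay within the fetal range and the other 3 below it. Tpi1 did not pass with all libraries (log2 fold change of -0.49, SE 0.194, adjusted p = 0.1005) and fell without P14 replicate 1 (log2 fold change of -0.69, SE 0.0834, adjusted p = 0.000341). It also passed after rescaling to TPM (-0.69, adjusted p = 0.00711), which lowers P14 replicate 1 most.

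Gapdh, which encodes glyceraldehyde-3-phosphate dehydrogenase, a protein usually among the most abundant of a cell, was listed at 1.90 to 4.44 FPKM. That is 63 to 144 reads per library, where Pgk1, the gene of the next enzyme, held 3442 to 6277. The table listed 264 pseudogene loci described as copies of this enzyme, and together they held 495 to 967 reads per library. Reads of Gapdh may have been split among such copies or dropped, so its values are uncertain, although it enters the counts without P14 replicate 1 as a decrease (log2 fold change of -0.44, SE 0.166, adjusted p = 0.0882, and log2 fold change of -0.46, SE 0.167, adjusted p = 0.0484 without P14 replicate 1).

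Further down the pathway Pgk1, Pgam1, Eno1 and Pkm fell. Pgam1, phosphoglycerate mutase, read 137, 127, 106 and 115 FPKM in fetal libraries and 59.2, 65.6, 58.2 and 66.2 in pups (log2 fold change of -0.94, SE 0.113, adjusted p = 0.00163). Eno1, the ubiquitous enolase, read 285, 261, 253 and 301 FPKM in fetal libraries and 174, 147, 159 and 108 in pups (log2 fold change of -0.92, SE 0.156, adjusted p = 0.00577). In both genes every P14 library lay well below every fetal one. Eno1 has a similar copy, Eno1b, in the table, and the authors' counting could split reads between them. The sum of both was 292 to 339 FPKM in the fetus and 152 to 177 in pups. Pgk1, phosphoglycerate kinase, averaged 163 ± 15.9 FPKM in the fetus and 123 ± 12.9 in pups (log2 fold change of -0.40, SE 0.1197, adjusted p = 0.0434). Pkm, the muscle-type pyruvate kinase gene, averaged 105 ± 7.99 and 69.4 ± 16.7 FPKM (log2 fold change of -0.63, SE 0.185, adjusted p = 0.0422). Both calls were narrow. That of Pgk1 was lost when any 1 library other than P14 replicate 1 was left out (adjusted p 0.0566 to 0.111), and that of Pkm when any 1 library other than P14 replicates 1 and 2 was left out (0.0526 to 0.102). Both were also lost after median-of-ratios scaling (adjusted p = 0.0515 and 0.0556) and with no filter on low values (0.0840 and 0.0844), and that of Pkm after rescaling to TPM (0.0610). A gene-level value does not separate the splice forms of Pkm. Eno3, the muscle enolase, read 5.68, 6.20, 5.88 and 3.74 FPKM in fetal libraries and 6.25, 8.65, 8.04 and 9.63 in pups, with no overlap (log2 fold change of 0.53, SE 0.176, adjusted p = 0.0622). It rose when P14 replicate 1 was left out (log2 fold change of 0.63, SE 0.149, adjusted p = 0.00842).

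At the exit of the pathway, the 2 lactate dehydrogenase genes lay on opposite sides of their fetal ranges in all P14 libraries, with P14 replicate 1 the reverse of the other 3. Ldha (gene 16828, chromosome 7, 46491698 to 46505051, plus strand) encodes the chain that predominates in glycolytic tissue. Fetal libraries held 126, 115, 102 and 127 FPKM of it, P14 replicate 1 held 164 and P14 replicates 2 to 4 held 69.5, 72.2 and 71.7. Ldhb (gene 16832, chromosome 6, 142435975 to 142453683, minus strand) encodes the chain of oxidative tissue. Fetal libraries held 43.96, 43.5, 46.2 and 47.9 FPKM, P14 replicate 1 held 24.99 and the others 92.2, 74.8 and 85.5. P14 replicate 1 was the highest of all libraries in Ldha and the lowest in Ldhb, and the other P14 libraries lay on the opposite side of the fetal range. Neither gene passed with all libraries (log2 fold change of -0.41, SE 0.276, adjusted p = 0.304 for Ldha and log2 fold change of 0.45, SE 0.381, adjusted p = 0.4195 for Ldhb). Without P14 replicate 1, Ldha fell (log2 fold change of -0.71, SE 0.0905, adjusted p = 0.000441) and Ldhb rose (log2 fold change of 0.87, SE 0.0869, adjusted p = 0.000131). Rescaled to TPM with all libraries, which lowers P14 replicate 1 most, Ldha passed as well (-0.61, adjusted p = 0.0444).

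The monocarboxylate transporters went in opposite directions in every P14 library. Slc16a3 (gene 80879, chromosome 11, 120839310 to 120849826, plus strand) encodes MCT4, known for lactate export from glycolytic cells. It read 12.7, 10.9, 8.69 and 10.2 FPKM in fetal libraries and 1.53, 1.58, 1.23 and 1.37 in pups. The P14 libraries were close together and the mean was 7.43-fold higher in the fetus (log2 fold change of -2.25, SE 0.1303, adjusted p = 0.000263). Slc16a1 (gene 20501, chromosome 3, 104545980 to 104565778, plus strand) encodes MCT1, which carries lactate and ketone bodies in either direction. It rose from 11.6, 13.2, 12.6 and 15.7 FPKM in the fetus to 24.5, 25.1, 24.5 and 24.97 in pups (log2 fold change of 0.86, SE 0.107, adjusted p = 0.00181). Both calls held without P14 replicate 1. Pdk1, a kinase that inhibits pyruvate dehydrogenase and so limits the entry of pyruvate into mitochondrial oxidation, fell from 10.6, 10.9, 11.2 and 14.7 FPKM to 5.86, 4.87, 4.47 and 5.20 (log2 fold change of -1.07, SE 0.132, adjusted p = 0.00181). Its relatives Pdk2 and Pdk4 rose, as given with the genes of pyruvate entry, and Pdk3 did not pass. The Pdk1 decrease alone therefore does not describe the inhibition of pyruvate dehydrogenase.

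The letters before the start of 3 gene pairs were read from RefSeq (build GRCm38.p6, a different build from that of the gene table), because the core of the HIF binding element is ACGTG or GCGTG and because Hk2 and Hk1, Slc16a3 and Slc16a1, and Ldha and Ldhb differed in direction or in call. Each line gives the 250 bases before an annotated start, 5′ to 3′ on the gene's own strand, with both cores, on either strand, in capitals. Of the 2 annotated starts of Hk1 and of Ldha, start 1 is the more upstream. The windows on GRCm38.p6 are chr6:82774455-82774704 (minus strand) for Hk2, chr10:62379909-62380158 and chr10:62340422-62340671 (minus) for Hk1, chr11:120948817-120949066 (plus) for Slc16a3, chr3:104638414-104638663 (plus) for Slc16a1, chr7:46845554-46845803 and chr7:46846832-46847081 (plus) for Ldha, and chr6:142507958-142508207 (minus) for Ldhb.
Hk2: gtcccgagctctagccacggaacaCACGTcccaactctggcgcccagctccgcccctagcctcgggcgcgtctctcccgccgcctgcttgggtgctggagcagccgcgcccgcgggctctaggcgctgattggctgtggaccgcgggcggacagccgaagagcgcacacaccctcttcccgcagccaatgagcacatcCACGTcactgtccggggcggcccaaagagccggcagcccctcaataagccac
Hk1 start 1: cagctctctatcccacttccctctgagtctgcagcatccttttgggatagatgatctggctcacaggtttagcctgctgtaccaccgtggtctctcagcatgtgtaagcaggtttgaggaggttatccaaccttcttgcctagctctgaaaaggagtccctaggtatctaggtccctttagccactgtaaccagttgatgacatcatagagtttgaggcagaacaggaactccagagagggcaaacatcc
Hk1 start 2: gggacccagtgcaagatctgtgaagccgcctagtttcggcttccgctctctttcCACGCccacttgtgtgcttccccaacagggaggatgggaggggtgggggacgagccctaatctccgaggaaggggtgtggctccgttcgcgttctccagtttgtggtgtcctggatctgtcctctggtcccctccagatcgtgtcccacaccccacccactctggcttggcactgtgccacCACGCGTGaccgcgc
Slc16a3: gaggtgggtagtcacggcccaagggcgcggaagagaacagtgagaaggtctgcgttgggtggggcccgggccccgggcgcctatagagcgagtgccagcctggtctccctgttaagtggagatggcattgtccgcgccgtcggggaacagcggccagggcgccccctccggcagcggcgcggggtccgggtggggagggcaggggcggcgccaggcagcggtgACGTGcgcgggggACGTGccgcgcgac
Slc16a1: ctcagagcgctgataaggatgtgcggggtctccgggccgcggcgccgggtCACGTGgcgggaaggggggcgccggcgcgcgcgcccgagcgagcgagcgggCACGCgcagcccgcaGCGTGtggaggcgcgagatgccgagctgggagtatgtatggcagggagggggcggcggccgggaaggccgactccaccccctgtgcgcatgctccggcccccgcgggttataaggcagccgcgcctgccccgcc
Ldha start 1: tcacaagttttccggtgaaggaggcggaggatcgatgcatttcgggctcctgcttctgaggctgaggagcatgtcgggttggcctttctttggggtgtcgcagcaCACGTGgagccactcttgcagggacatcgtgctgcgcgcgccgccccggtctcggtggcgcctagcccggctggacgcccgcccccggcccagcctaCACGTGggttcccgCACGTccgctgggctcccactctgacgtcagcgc
Ldha start 2: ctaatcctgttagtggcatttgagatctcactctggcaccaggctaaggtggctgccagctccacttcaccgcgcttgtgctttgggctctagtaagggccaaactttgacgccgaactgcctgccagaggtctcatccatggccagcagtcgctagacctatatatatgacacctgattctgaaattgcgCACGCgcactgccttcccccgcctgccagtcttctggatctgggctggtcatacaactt
Ldhb: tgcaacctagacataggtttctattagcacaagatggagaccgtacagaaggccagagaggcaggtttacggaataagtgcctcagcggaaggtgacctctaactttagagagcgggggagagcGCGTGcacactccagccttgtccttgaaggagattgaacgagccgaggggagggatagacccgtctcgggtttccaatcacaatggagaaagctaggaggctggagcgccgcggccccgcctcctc

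Hk2 and Slc16a3 each held 2 ACGTG matches in this window, those of Slc16a3 with the first base at 27 and 14 bases before the start. Start 1 of Ldha held 5 ACGTG matches and start 2 held 1 GCGTG. Slc16a1, the gene that rose, held 2 matches of each core. For start 1 of Ldha and for the start of Slc16a1, the bases that follow were not found near the opening of a GENCODE transcript of the gene. For the other printed starts they were, so these windows of Ldha and Slc16a1 are less certain. Both start 1 of Ldha and the window of Slc16a1 contained CACGTG, a palindrome that counts as 2 matches because it reads ACGTG on each strand and that is also the E-box of other factors. Start 1 of Hk1 held no match, its start 2 held 3 GCGTG matches, of which the pair at 15 and 12 bases before the start overlaps, and Ldhb held 1 GCGTG. Windows were found for 34 of the 37 genes, all but Slc2a3, Epas1 and Stc1, and 32 of the 34 held at least 1 match in some window. Among all 27025 genes with windows 41.5% did so, and among the 10458 of them that were tested here 60.7%. ACGTG was found in 52.9% of the 34 genes and 24.7% of those tested, and GCGTG in 70.6% and 49.3%. By call with all libraries, 13 of 13 genes that fell, 3 of 3 that rose and 16 of 18 that did not pass held a match. A match describes letters and is not evidence of binding, and genes with several annotated starts have more windows in which to hold one.

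Of the 3 HIF subunit genes 1 fell. Hif1a (gene 15251, chromosome 12, 73948098 to 73994328, plus strand), the alpha subunit most tied to glycolytic genes, read 35.7, 35.4, 41.6 and 46.7 FPKM in fetal libraries and 21.1, 23.5, 22.1 and 25.5 in pups, with every P14 library below every fetal one (log2 fold change of -0.76, SE 0.122, adjusted p = 0.004804). Epas1, the gene of HIF-2 alpha, known from endothelium, read 39.8, 39.5, 40.9 and 39.3 FPKM in fetal libraries and 25.8, 37.2, 33.8 and 36.6 in pups. Its ages did not overlap, but it passed neither with all libraries (log2 fold change of -0.26, SE 0.129, adjusted p = 0.166) nor without P14 replicate 1 (log2 fold change of -0.15, SE 0.0656, adjusted p = 0.0882). Arnt, the shared partner, averaged 23.2 ± 1.36 FPKM in the fetus and 19.1 ± 1.18 in pups (log2 fold change of -0.27, SE 0.09198, adjusted p = 0.0678). It passed without P14 replicate 1 (log2 fold change of -0.29, SE 0.0761, adjusted p = 0.0129) and after rescaling to TPM (-0.46, adjusted p = 0.0371), which lowers P14 replicate 1 most. HIF alpha subunits are controlled mainly as proteins, which these libraries do not measure.

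Egln3 and Egln1 encode the prolyl hydroxylases PHD3 and PHD2, which are both HIF targets and HIF inhibitors. Egln3 (gene 112407, chromosome 12, 54225767 to 54250660, minus strand) read 64.9, 59.7, 63.8 and 68.6 FPKM in fetal libraries and 25.9, 33.8, 31.3 and 35.4 in pups (log2 fold change of -1.01, SE 0.119, adjusted p = 0.00157). The ages did not overlap and the mean was 2.04-fold higher in the fetus. Egln1 averaged 36.7 ± 1.87 FPKM in the fetus and 31.7 ± 3.91 in pups and did not pass (log2 fold change of -0.21, SE 0.113, adjusted p = 0.1996).

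Among the 8 HIF targets outside glucose metabolism, Stc2, Stc1 and Ddit4 fell and none rose with all libraries. The stanniocalcin genes encode secreted glycoproteins that act on calcium and phosphate handling. Stc2 (gene 20856, chromosome 11, 31309441 to 31320061, minus strand) read 49.4, 41.6, 41.3 and 29.1 FPKM in fetal libraries and 4.65, 3.92, 9.49 and 4.31 in pups, where replicate 3 rather than replicate 1 was the highest. Its mean was 7.22-fold higher in the fetus (log2 fold change of -2.70, SE 0.266, adjusted p = 0.000837). Stc1 (gene 20855, chromosome 14, 69266738 to 69278850, plus strand) read 6.13, 6.12, 8.10 and 6.61 FPKM in fetal libraries and 1.03, 2.01, 2.62 and 1.91 in pups (log2 fold change of -1.44, SE 0.188, adjusted p = 0.00222). Ddit4 is the gene of REDD1, an inhibitor of mTORC1 induced by stress and low oxygen. It read 44.5, 50.3, 37.9 and 41.7 FPKM in fetal libraries and 21.2, 18.3, 27.01 and 30.3 in pups, with no overlap (log2 fold change of -0.84, SE 0.173, adjusted p = 0.0118).

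For Bnip3 and Ankrd37 P14 replicate 1 lay within the fetal range and the other P14 libraries below it. Bnip3, a mitochondrial protein that promotes mitophagy, read 34.5, 31.9, 35.9 and 53.8 FPKM in fetal libraries and 39.2, 21.7, 20.2 and 19.6 in pups. Ankrd37, a small ankyrin-repeat protein, read 13.8, 13.01, 12.4 and 17.6 FPKM in fetal libraries and 16.8, 5.47, 4.25 and 2.40 in pups. Neither passed with all libraries (log2 fold change of -0.64, SE 0.255, adjusted p = 0.102 for Bnip3 and log2 fold change of -1.16, SE 0.452, adjusted p = 0.0963 for Ankrd37). Without P14 replicate 1, Bnip3 fell (log2 fold change of -0.87, SE 0.165, adjusted p = 0.00319) and so did Ankrd37 (log2 fold change of -1.63, SE 0.217, adjusted p = 0.000723). Both also passed after rescaling to TPM (-0.85, adjusted p = 0.0173, and -1.46, adjusted p = 0.0336). That scale lowers P14 replicate 1, their highest P14 library, most.

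Car9, Higd1a and Adm had higher means at P14, and none of the 3 passed with all libraries. Car9, a membrane carbonic anhydrase that regulates pH, read 3.36, 4.16, 4.53 and 4.47 FPKM in fetal libraries and 4.60, 7.57, 5.62 and 6.62 in pups, with no overlap (log2 fold change of 0.46, SE 0.157, adjusted p = 0.0658). It rose without P14 replicate 1 (log2 fold change of 0.57, SE 0.122, adjusted p = 0.00544). Higd1a, a mitochondrial inner membrane protein, averaged 18.3 ± 2.04 FPKM in the fetus and 26.4 ± 8.26 in pups (log2 fold change of 0.45, SE 0.243, adjusted p = 0.204). Its P14 replicate 1 value of 14.6 FPKM was the lowest of all libraries, and without it Higd1a rose (log2 fold change of 0.70, SE 0.108, adjusted p = 0.001098). Adm, the gene of the vasodilator adrenomedullin, averaged 5.05 ± 0.524 FPKM in the fetus and 5.78 ± 0.701 in pups and passed neither with all libraries (log2 fold change of 0.16, SE 0.119, adjusted p = 0.341) nor without P14 replicate 1 (log2 fold change of 0.16, SE 0.114, adjusted p = 0.285).

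Glycolytic enzymes and HIF targets of other function were then set side by side. Of the 15 enzymes, 2 rose, 6 fell and 7 did not pass, with a median log2 fold change of -0.40. This median is the value of Pgk1, whose call was narrow, and the uncertain Gapdh (-0.44) enters it. Of the 8 other targets, 0 rose, 3 fell and 5 did not pass by limma, with a median of -0.74. That median lies midway between Ddit4 (-0.84) and Bnip3 (-0.64), and Bnip3 did not pass with all libraries. At an unadjusted p under 0.05 the targets counted 1 higher and 5 lower. Without P14 replicate 1 the enzymes counted 5 up and 8 down, with the uncertain Gapdh among the 8 (median -0.44), and the targets 2 up and 5 down (median -0.83). Over all tested genes 9.72% were higher and 15% lower with all libraries and 22.6% and 26.9% without P14 replicate 1, and nothing particular to either group is read from its count of increases. The spread within each group was wide: log2 fold changes ran from -1.47 (Hk2) to 0.88 (Pfkp) among the enzymes and from -2.70 (Stc2) to 0.46 (Car9) among the targets. The difference between the medians carries no test.

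The part of a gene in its family's summed FPKM was compared between the ages for 10 such shares. Gene-model lengths enter them (Ldha is counted over 5342 bases and Ldhb over 1304), so they compare libraries and do not measure protein ratios. Slc16a3 made up 52.3%, 45.3%, 40.7% and 39.3% of Slc16a1 and Slc16a3 in the fetal libraries and 5.90%, 5.93%, 4.81% and 5.19% in those of pups. Hk2 made up 24.4% ± 0.646 of Hk1 and Hk2 in the fetus and 8.08% ± 4.26 in pups. These are the transporter of lactate export and the inducible hexokinase, and in both the ages lay apart. Among the phosphofructokinases Pfkl went from 58.6% ± 2.59 to 32.7% ± 7.23 and Pfkp from 14.2% ± 1.95 to 28.9% ± 3.66. Epas1 went from 50.2% ± 3.34 to 58.9% ± 2.80 of Hif1a and Epas1. The muscle enolase Eno3 went from 1.94% ± 0.504 to 5.50% ± 1.99 of Eno1 and Eno3, and Aldoc from 1.47% ± 0.0689 to 2.31% ± 0.233 of Aldoa and Aldoc. In these 7 shares the ages did not overlap, with an exact two-sided permutation p of 0.0286 each, the smallest that 4 against 4 libraries allow (0.0408 adjusted over the 10 shares). When E17.5 replicate 1, 3 or 4 was left out, the 7 shares kept their direction and no longer passed (adjusted exact permutation p 0.0571 to 0.0816), and that of Eno3 was also lost without E17.5 replicate 2.

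The other 3 shares overlapped through P14 replicate 1 (exact permutation p = 0.143 each, 0.143 adjusted). Ldhb made up 25.8%, 27.5%, 31.2% and 27.5% of Ldha and Ldhb in the fetal libraries, 13.2% in P14 replicate 1 and 57.04%, 50.9% and 54.4% in P14 replicates 2 to 4. Pfkm stood at 27.2% ± 0.748 in the fetus, at 22.3% in P14 replicate 1 and at 43.8% ± 1.83 over the other P14 libraries. Slc2a1 made up 84.4% ± 1.97 of Slc2a1 and Slc2a3 in the fetus, 88.4% in P14 replicate 1 and 50.1% ± 6.24 over the others. In each of the 3, P14 replicate 1 lay beyond the fetal libraries on the side away from the other pups. Without it the ages did not overlap in any of the 10 shares (exact permutation p = 0.0286 each, 0.0286 adjusted).

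**Figure D3:**
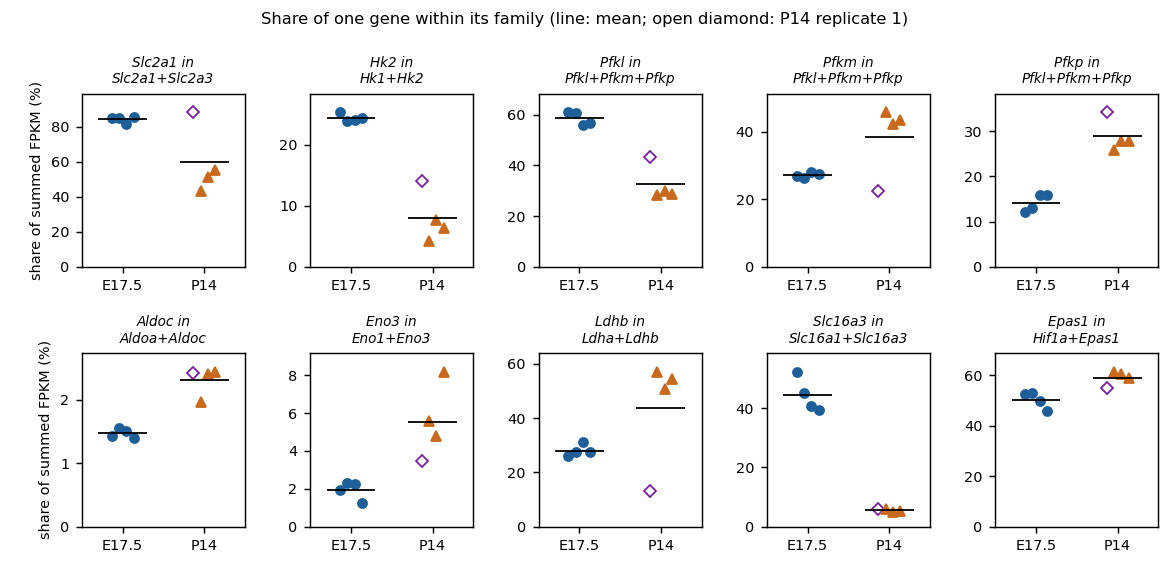
Each panel gives the share (%) of 1 gene in the summed FPKM of its family per library, with the mean as a line: circles E17.5, triangles P14 replicates 2 to 4, open diamond P14 replicate 1. The Slc16a3 share lies between 39.3% and 52.3% in fetal libraries and between 4.81% and 5.93% at P14, while for Ldhb, Pfkm and Slc2a1 the diamond lies on the other side of the E17.5 values from the triangles.

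P14 replicate 1 was read apart from the other P14 libraries gene by gene. It was the highest P14 library for 13 of the 37 genes and the lowest for 14. Its level was 4.15 times the mean of P14 replicates 2 to 4 for Ankrd37, 3.03 times for Slc2a1, 2.76 times for Pfkfb4, 2.31 times for Ldha, 1.91 times for Bnip3 and 1.74 times for Tpi1. The lowest ratios were those of Ldhb (0.297), Hk1 (0.372), Slc2a3 (0.403), Stc1 (0.472), Pfkm (0.472) and Higd1a (0.484). Median ratios of the marker lists were 14.5 for epithelium, 1.86 for B and plasma cells, 0.851 for erythroid cells, 0.731 for macrophages, 0.518 for cell division, 0.481 for endothelium, 0.393 for skeletal muscle, 0.385 for fibroblasts and matrix, 0.324 for smooth muscle and 0.321 for enteric neurons. Hk2, Slc16a1, Slc16a3, Aldoc, Pgam1 and Hif1a had ratios of 0.892 to 1.10 and were called with and without that library. Aldoa, Adm, Gapdh and Arnt had ratios in the same range and were not called with all libraries. The part of the epithelial and wall transcripts in the other values was not tested.

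**Figure D4:**
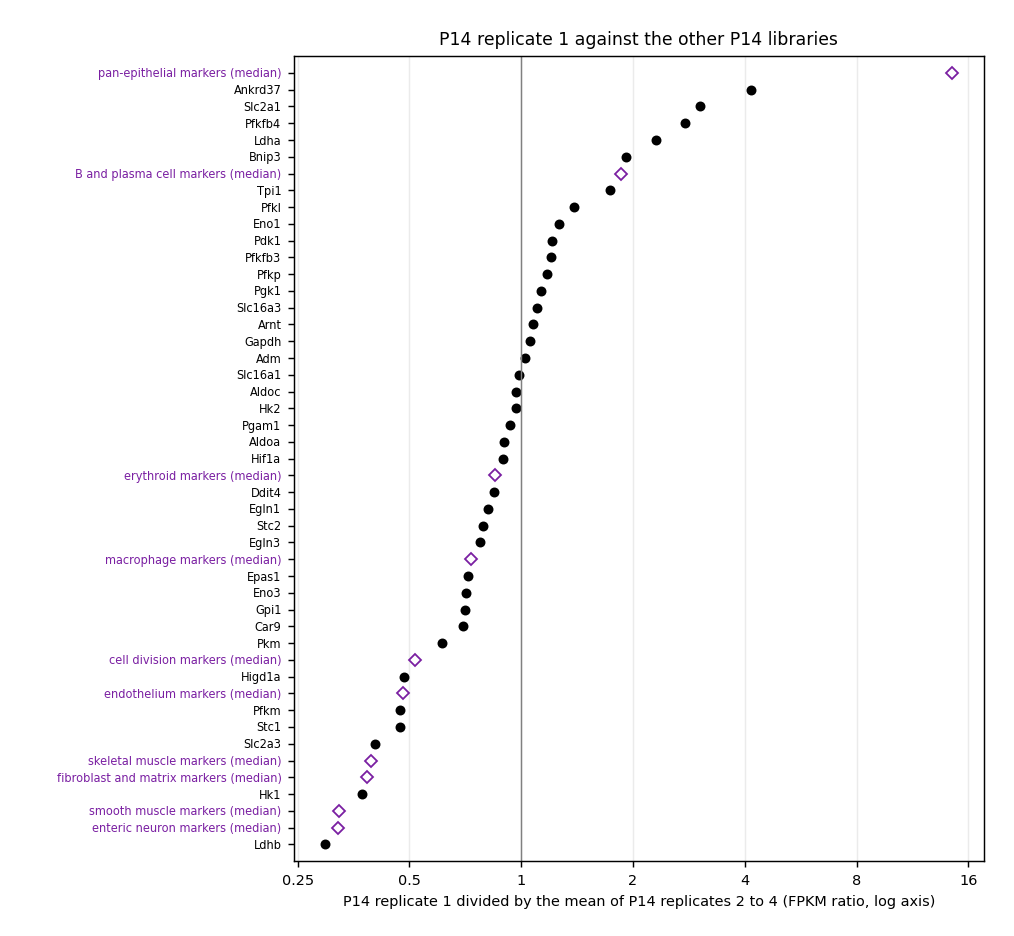
Ratio of P14 replicate 1 to the mean of P14 replicates 2 to 4 on a log axis, for each of the 37 genes and as the median of each marker list. Ankrd37, Slc2a1, Pfkfb4 and Ldha lie at 2.31 to 4.15, between 1 and the epithelial median of 14.5, and Ldhb and Hk1 lie at 0.297 and 0.372, near the smooth muscle, neuron and fibroblast medians.

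The summed erythroid, cell division, endothelial and macrophage markers lay lower in all P14 libraries than in all fetal ones. Erythroid markers summed to between 1649 and 2404 FPKM in the fetus and between 339 and 569 in pups, and cell division markers to between 285 and 322 and between 78.9 and 159.6. Endothelial markers summed to between 474 and 497 FPKM in the fetus and between 165 and 360 in pups, and macrophage markers to between 335 and 387 and between 142 and 219. The 14 genes called lower, Slc2a1, Hk2, Slc16a3, Pdk1 and Eno1 among them, fell with age as these lists did. The part of such cells in them was not tested. Skeletal muscle markers summed to between 25.04 and 30.2 FPKM in the fetus and between 13.6 and 59.3 in pups, and 6 of the 9 were below the level tested.

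Other genes of the same pathways were counted from 5 lists. Among 38 tested further HIF targets, 12 fell, 2 rose and the other 24 did not pass, with a median log2 fold change of -0.32. Over all tested genes 15% fell and 9.72% rose. Leaving out P14 replicate 1 gave 24 decreases and 5 increases, with a median of -0.44, beside 26.9% and 22.6% of all tested genes. Nothing particular to the list is read from its increases. P4ha1, a collagen prolyl hydroxylase subunit, averaged 36.7 ± 2.79 FPKM in the fetus and 9.81 ± 2.19 in pups (log2 fold change of -1.83, SE 0.162, adjusted p = 0.000693). Vegfa, the vascular growth factor, averaged 40.2 ± 1.36 and 14.6 ± 2.32 (log2 fold change of -1.41, SE 0.121, adjusted p = 0.000616), and the membrane protein gene Tmem45a fell as well (log2 fold change of -1.39, SE 0.217, adjusted p = 0.00438). Mif, a cytokine gene with the highest level of the list, fell (log2 fold change of -0.83, SE 0.157, adjusted p = 0.00876). The 2 that rose were Angptl4, an inhibitor of lipoprotein lipase (log2 fold change of 1.98, SE 0.455, adjusted p = 0.01802), and Car12, another carbonic anhydrase (log2 fold change of 0.74, SE 0.1502, adjusted p = 0.0112). Of the 14 calls 8 held when each library in turn was left out and 6 did not, among them Angptl4, lost without E17.5 replicate 3 or 4 or P14 replicate 3 (adjusted p up to 0.0564).

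Of 17 tested genes of pyruvate entry and gluconeogenesis 7 rose and none fell by limma with all libraries (8 higher and 0 lower at an unadjusted p under 0.05), and 8 rose and 1 fell without P14 replicate 1. Over all tested genes 9.72% rose and 15% fell with all libraries, and 22.6% and 26.9% without P14 replicate 1. The largest increases were those of Fbp1, Pck1 and Fbp2, enzymes of gluconeogenesis, which averaged 0.174 ± 0.146, 0.211 ± 0.162 and 0.585 ± 0.332 FPKM in the fetus and 70.9 ± 113, 46.00 ± 44.7 and 72.6 ± 119 in pups. In P14 replicate 1 they were at 16.1, 3.71 and 18.4 times the mean of the other P14 libraries, beside the epithelial median ratio of 14.5. Their calls were lost in 5, 4 and 6 of the 8 omissions of 1 library (adjusted p up to 0.0609, 0.0607 and 0.1002), among them those of E17.5 replicates 2, 3 and 4 and of P14 replicate 3. Of the 7 increases, 2 (Pdk4 and Pdk2) held under every omission. Pdhb, a subunit of pyruvate dehydrogenase with the highest level of the list, did not pass (log2 fold change of 0.23, SE 0.102, adjusted p = 0.142). Pdk4 and Pdk2 encode relatives of Pdk1, which fell, and were named after their values were seen. Pdk4 rose from 3.64, 3.69, 3.83 and 5.07 FPKM to 7.56, 13.5, 14.1 and 10.8 (log2 fold change of 1.28, SE 0.197, adjusted p = 0.00422). Pdk2 rose from 11.1, 10.8, 11.4 and 10.3 FPKM to 44.2, 20.6, 24.7 and 19.4 (log2 fold change of 1.17, SE 0.2398, adjusted p = 0.0119).

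Among 8 tested sugar and lactate carriers outside the 37 genes, 2 rose and 1 fell, where 9.72% and 15% of all tested genes did so. Slc2a4, the insulin-regulated carrier GLUT4, averaged 11.8 ± 0.878 FPKM in the fetus and 37.8 ± 16.7 in pups (log2 fold change of 1.45, SE 0.376, adjusted p = 0.0273), and P14 replicate 1 was at 0.297 times the mean of the other P14 libraries. The Slc2a4 call was lost when any 1 library other than P14 replicate 1 was left out (adjusted p up to 0.0759). Bsg, which encodes basigin, the chaperone of MCT1 and MCT4, rose (log2 fold change of 0.76, SE 0.206, adjusted p = 0.0318), and Emb, which encodes embigin, another such chaperone, fell (log2 fold change of -0.72, SE 0.171, adjusted p = 0.0204). Both calls were lost without E17.5 replicate 2, 3 or 4 or P14 replicate 3, and that of Bsg also without E17.5 replicate 1 (adjusted p up to 0.094 for Bsg and 0.0623 for Emb). Of 11 other glycolysis genes 2 rose and 2 fell. Beside the shares over all tested genes, nothing particular to the carriers or to these genes is read from such counts. Tigar, which lowers fructose 2,6-bisphosphate, rose (log2 fold change of 0.83, SE 0.0996, adjusted p = 0.00164). Hk3, a leukocyte hexokinase, and Adpgk, the ADP-dependent glucokinase, fell (log2 fold change of -0.89, SE 0.136, adjusted p = 0.00406 and log2 fold change of -0.52, SE 0.122, adjusted p = 0.0191). The Adpgk call was lost under the same 4 omissions as that of Emb (adjusted p up to 0.0584).

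Of 12 other HIF pathway factors none rose, 2 fell and 10 did not pass by limma, and at an unadjusted p under 0.05 the counts were 2 higher and 4 lower. With all libraries the 2 decreases among 12 lie near the 15% of all tested genes. Without P14 replicate 1, 2 of the 12 rose and 6 fell, with a median log2 fold change of -0.25. Over all tested genes 22.6% rose and 26.9% fell without that library. Cited2, a HIF-inducible inhibitor of HIF, fell (log2 fold change of -0.61, SE 0.174, adjusted p = 0.0381). Hif3a, an alpha subunit gene whose products can restrain HIF and which was named after its values were seen, read 19.5, 20.9, 23.6 and 19.97 FPKM in fetal libraries and 20.6, 2.14, 3.89 and 1.72 in pups (log2 fold change of -2.002, SE 0.597, adjusted p = 0.0435). For Hif3a, P14 replicate 1 lay within the fetal range and the other P14 libraries far below it. Both calls were lost when any 1 library other than P14 replicate 1 was left out (adjusted p up to 0.095 for Cited2 and 0.109 for Hif3a), and without P14 replicate 1 the Hif3a difference was a log2 fold change of -2.66, SE 0.186, adjusted p = 3.05e-05. Elob, the elongin B gene with the highest level of the list, did not pass (log2 fold change of 0.29, SE 0.118, adjusted p = 0.107).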

How the data were processed

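RNA-seq libraries of wild-type mouse small-intestinal mesenchyme, 4 at E17.5 and 4 at P14, were read from 1 deposited table of the authors, whose name gives the unit as FPKM. CASAVA, fastp, HISAT2, featureCounts, DESeq2 1.20.0 and build GRCm39 are named, without roles, per the submitters' processing notes. The step that made the FPKM, the treatment of multiply mapped reads and the use of strand are not given in the sources used here, so overlapping, antisense and copied genes are uncertain. Products of FPKM and gene length were whole numbers of 1 step within each library for 100% of values (tolerance 1e-06), which gave the assigned reads.

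Genes with 1 FPKM or more in at least 4 libraries were tested as log2(FPKM + 1) in limma 3.58.1 (R 4.3.3, statmod 1.5.0; trend and robust options, two-sided, Benjamini-Hochberg over 14044 genes, called at an adjusted p under 0.05). The code was tested on artificial data with known changes. Family shares were compared by an exact two-sided permutation test. The members and gene lists were chosen with earlier results of these data known. All 37 members are named. From each further list the text names up to 3 called genes per direction with the largest change among those whose ages do not overlap, plus the one with the highest level. For 1 gene chosen by this rule the result is not reported here. Of 218 list symbols 217 matched, and G6pc1 did not. Alternatives were a pseudocount of 0.1, no filter, a mean FPKM of 5 or more, TPM, median-of-ratios scaling, a replicate block and the omission of each library. Promoter letters came from RefSeq on GRCm38.p6.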

Additional observations from a re-analysis of the deposited data

Results flagged for a closer look

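In each of 74 groups of 4 libraries (37 genes at 2 ages) the highest or lowest library was compared with the rest by Dixon's criterion on the log2(FPKM + 1) scale, and 7 libraries stood far from the other 3. Chance alone flags about 1 in 20 such groups when they are independent. Groups of the same age share their libraries and are not independent. The rate over all tested genes was not computed, so nothing particular to the 37 genes is read from the number of flags.

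Of the 7, 6 were P14 replicate 1. It was high for Ldha at 164 FPKM (others 69.5 to 72.2), Tpi1 at 255 FPKM (others 143 to 152), Bnip3 at 39.2 FPKM (others 19.6 to 21.7) and Pfkfb4 at 8.84 FPKM (others 3.04 to 3.35). It was low for Ldhb at 25.0 FPKM (others 74.8 to 92.2) and Slc2a3 at 2.61 FPKM (others 6.18 to 6.88). The other was Pdk1 in E17.5 replicate 4, at 14.7 FPKM against 10.6 to 11.2 in the other fetal libraries.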

How the results depend on the processing

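Of 17 calls among the 37 genes, 15 held under the omission of each library, and the 2 exceptions were Pgk1 and Pkm. The number of genes called higher ran from 3 to 10 over the omissions, with 10 only without P14 replicate 1, and the number called lower from 12 to 20. The median log2 fold change of the 15 enzymes ran from -0.46 to -0.33 and that of the 8 other HIF targets from -0.83 to -0.66. Rescaling to TPM moved these medians to -0.59 and -0.95, beside a shift of -0.18 over all genes; it lost the calls of Pkm and Aldoc, added Tpi1, Ldha, Bnip3, Arnt, Ankrd37 and Gapdh as decreases, and turned Hk1 to -0.0931 and Pfkfb3 to -0.13. A mean FPKM of 5 or more left 7 of the 8 targets, with a median of -0.64. Over the omissions Slc2a3 ran from -0.27 to 0.10, Hk1 from -0.0679 to 0.43 and Pfkfb3 from -0.0114 to 0.12; none of these 3 was called with all libraries. The cause of these shifts was not tested.

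Replicate numbers are shared by the ages, but same-numbered libraries did not deviate together (correlations -0.0641 to 0.00947 across genes). No pairing by number was thus detected, although such correlations cannot exclude one. A replicate block gave 2 genes higher and 11 lower and called 1744 of all genes instead of 3473; the calls lost were Pgk1, Pkm, Ddit4 and Aldoc.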

Other observations

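Eno1b, the copy of Eno1, had 43.1, 41.04, 39.1 and 38.6 FPKM in the fetal libraries. Its P14 values were 2.39, 24.3, 3.04 and 43.8 FPKM, so that replicates 1 and 3 lay far below the other 6 libraries. P14 replicate 4, which had the highest Eno1b value of all 8, had the lowest Eno1 value, 108 FPKM. Gm7336, a pseudogene locus described as a copy of Gapdh, was listed at 6.54 to 17.2 FPKM, above Gapdh itself in every library.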
